A study of Mus musculus with 2 samples.

Results

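The genes described here are those of the Nrf2 oxidative stress response, of glutathione metabolism and of glucuronidation, read in a mouse rectal carcinoma line recovered from lung tumours and in its parent. They were chosen as 25 listed symbols plus every gene whose symbol starts with Gsta, Gstm, Gstp, Gstt, Gsto, Ugt1a or Ugt2b on the platform and has a probe set annotated to it alone, which added 25 family genes. Of these 50 genes, 47 had such a probe set, out of 18193 genes named on the array, and 37 of the 47 were measured. The lung-recovered line, CMT-93-PM1, came from CMT-93 cells injected into the tail veins of female C57BL/6 mice aged 6 weeks, whose lung tumours were taken 8 weeks later and grown in primary culture. The labels do not say how many mice or tumours went into that culture. It was set against parental CMT-93 in culture. Both were grown in the same serum-containing medium, and neither label gives a treatment of the cultures. Each line was read on 1 array from 6 µg of total RNA, so no difference below has a replicate check, a test or a p-value. Line, culture and array cannot be told apart.

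Nrf2, encoded by Nfe2l2, is a transcription factor that the sensor Keap1 marks for degradation in unstressed cells. Electrophiles and oxidants block this, and Nrf2 then binds antioxidant response elements with small Maf partners and drives genes for glutathione synthesis, NADPH supply, thioredoxin reduction and conjugation. Glutathione S-transferases join glutathione to reactive compounds, and UDP-glucuronosyltransferases add glucuronic acid to bilirubin, steroids and foreign compounds, a function prominent in liver and gut epithelium. Much of the control of Nrf2 acts on the protein, which these arrays do not read.

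Signals are log2 values per probe set as deposited. A gene is represented by its probe set with the highest mean of the arrays and counted as measured if that exceeded the 40th percentile of its array at least once, a floor of 4.59 log2 on the lung-recovered and 4.69 log2 on the parental array. Where 1 array lies at its floor, the fold is a bound and is written "at least". Log2 ratios are lung-recovered minus parental, and 2-fold marks a difference in size only. Across all 6172 genes with several measured probe sets, the log2 ratios of probe sets of the same gene had a median SD of 0.18 and a 90th percentile of 0.52, the only spread these data hold. Nearest to the floor among measured members were Nqo1 (4.48 and 4.73 log2 on the lung-recovered and the parental array) and Gstm2 (4.78 and 4.51). Nearest below it were Ugt2b35 (3.88 and 4.33) and Cbr3 (4.05 and 4.24).

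Both lines showed epithelial genes, and several genes that define other cell types of the lung were at the floor, while others were above it. Of 10 intestinal epithelial markers, 7 were above the floor on each array, with Epcam, Cdh1, Krt8, Krt18 and Krt19 among them, while Krt20, Cdx1 and Vil1 were at the floor on both. Their summed linear signal was 29989 in the lung-recovered and 22689 in the parental line. Of the 8 lung epithelial markers, 3 were above the floor on the lung-recovered and 4 on the parental array. Sftpb (6.32 and 6.70 log2) and Ager (5.45 and 6.15 log2) were the brightest. Sftpa1, Scgb1a1, Cyp2f2 and Nkx2-1 lay at the floor in both lines, and the list summed to 235 and 301. Ptprc and Adgre1, which define leukocytes and macrophages, lay at the floor in both lines. Their list of 7 had 5 above the floor on each array and summed to 977 in lung-recovered and 1807 in parental cells. Within it Cd68 (7.05 and 5.23 log2) and Csf1r (7.54 and 6.42 log2) were higher, while Cd14, which makes up most of the sum, was lower (9.14 and 10.63 log2). Of the endothelial markers, Pecam1 and Emcn were at the floor on both arrays. The endothelial list of 5 had 2 above the floor on each array and summed to 718 and 481. Its members differed in opposite directions, with Cdh5 at 9.30 and 4.21 log2 and Tek at 3.43 and 8.57 log2. The fibroblast list of 6 had 3 above the floor on each array and summed to 144 and 162. Col1a1, Col3a1 and Pdgfra were at the floor, while Col1a2, Pdgfrb and Dcn were above it on both arrays. The part of these cell types in the members' values was not tested.

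The members differed by role. In such bulk RNA, fewer cells that express a gene and less RNA per cell cannot be told apart. The transferase families held most of the large differences, in both directions, while the enzymes of glutathione, thioredoxin and NADPH metabolism mostly had lower signals in the lung-recovered line, within 2-fold except for Me1. Of the 37 measured members, 4 passed 2-fold upward (Nfe2l2, Gstm5, Gsto2 and Gstt3) and 4 downward (Me1, Gsta2, Ugt2b34 and Ugt2b36). That is 10.8% in each direction, against 4.42% of all 13332 measured genes higher, 2.55% lower and 6.97% in either direction. The members' median log2 ratio was -0.14, with 12 above 0 and 25 below, against a median of 0.00 over all measured genes.

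**Figure D1:**
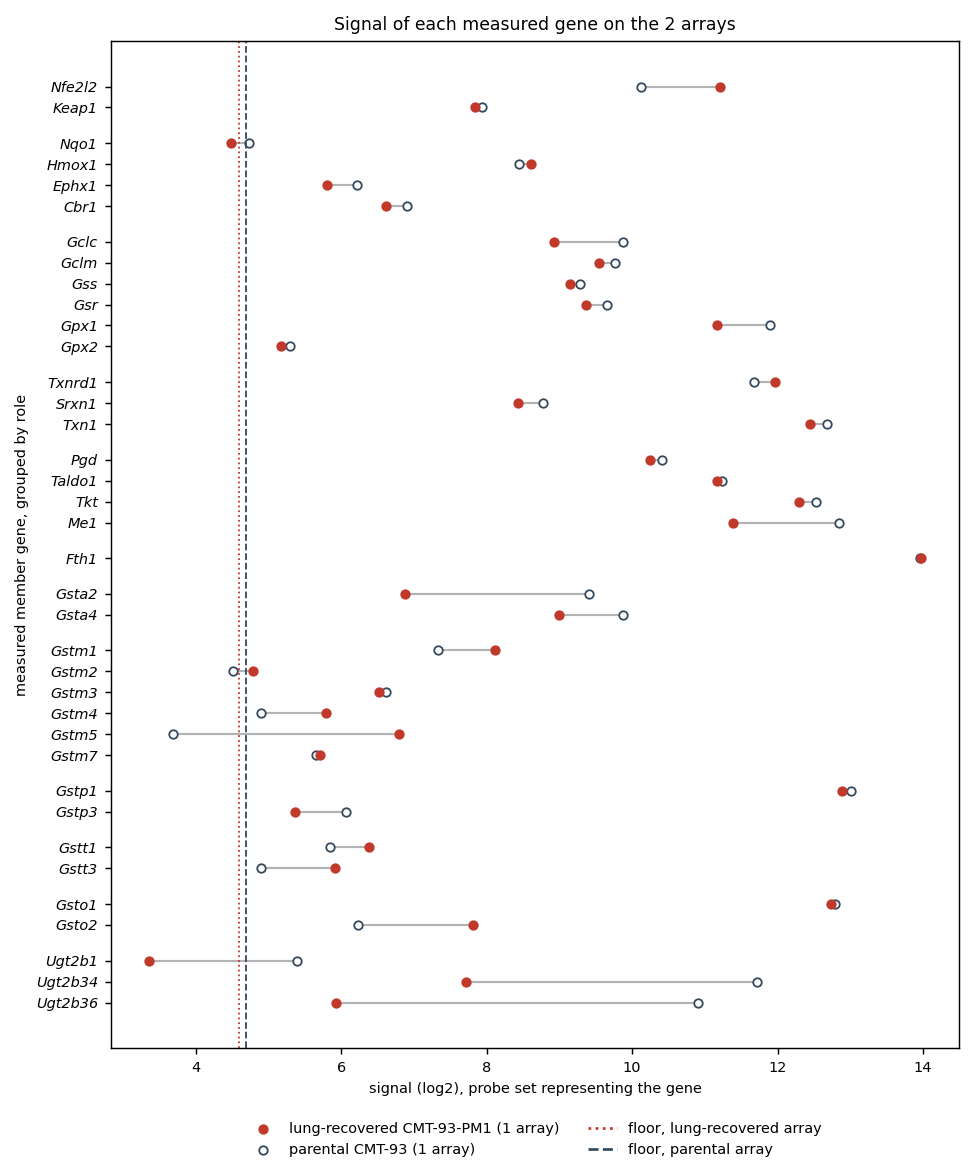
Log2 signal of each of the 37 measured genes on the lung-recovered array (filled) and the parental array (open), grouped by role, with each array's floor as a vertical line. Ugt2b36 (5.93 and 10.91) and Ugt2b34 (7.71 and 11.72) have the widest gaps, and most listed enzymes have nearly touching points.

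**Figure D2:**
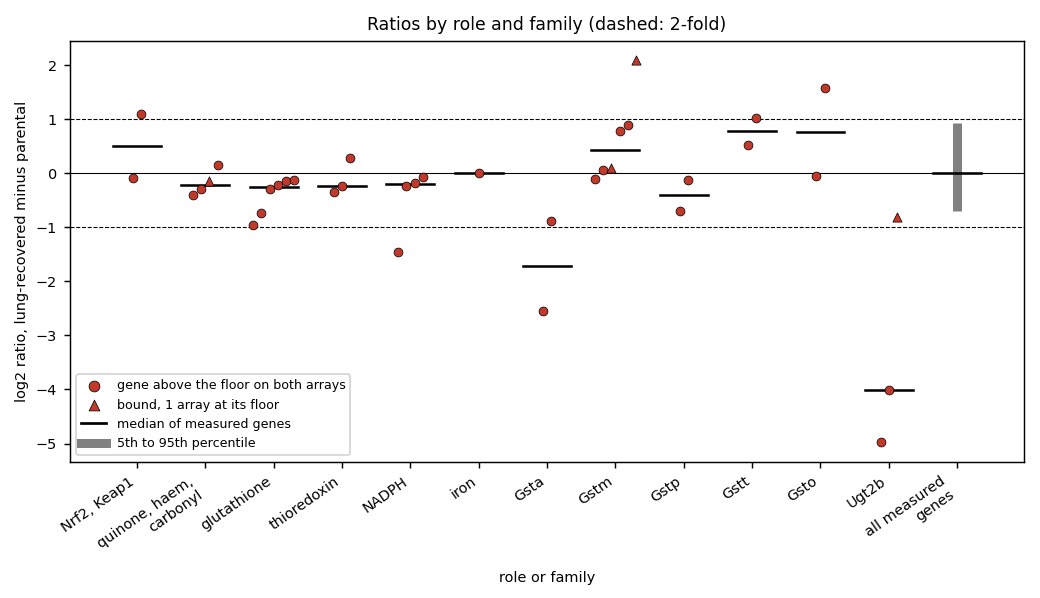
Log2 ratio (lung-recovered minus parental) of each measured gene by role or family, with the group median as a bar and, at the right, the range from the 5th to the 95th percentile of all measured genes (-0.69 to 0.93). The circles of Ugt2b and Gsta lie below 0, as do all those of the glutathione genes, from -0.95 to -0.13.

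Nfe2l2 had a signal of 11.21 log2 in lung-recovered cells, against 10.12 log2 in parental cells, or 2.13-fold higher. Its other probe set gave a smaller ratio, at 7.03 and 6.62 log2, and the median over both probe sets was 0.75, below the 2-fold mark. Keap1, the adaptor that hands Nrf2 to a ubiquitin ligase, read 7.84 and 7.93 log2. Its probe sets gave ratios of -0.09 and 0.15, so no direction is given for it. Transcripts of the other measured genes around Nrf2 were within 2-fold, though not all were close. Of 12 measured partners, repressors and degradation factors, 0 were past 2-fold, against 6.97% of all measured genes. At that share few or none of 12 genes would be past it in any case. The median log2 ratio of the 12 was 0.10. The ratios ran from -0.76 for Rbx1, which was dim (4.74 and 5.50 log2), to 0.63 for Sqstm1. The ligase subunit Cul3 read 10.55 and 10.34 log2. The autophagy receptor Sqstm1, which binds Keap1 and is itself an Nrf2 target, read 12.89 and 12.26 log2, and its other probe set gave a ratio of 0.69.

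The genes most used as readouts of Nrf2 did not share its difference in size. Nqo1, a quinone reductase, was 4.48 log2 in lung-recovered and 4.73 log2 in parental cells, barely above the floor on the parental array. Hmox1, which opens the haem ring, read 8.61 and 8.45 log2. Srxn1, the enzyme that repairs over-oxidised peroxiredoxins, read 8.43 and 8.78 log2, and its 4 probe sets lay between -0.35 and -0.13. Txnrd1, which reduces thioredoxin, read 11.96 and 11.68 log2, with its 3 probe sets between 0.10 and 0.28. In size these ratios were below 0.52, the 90th percentile of the SD between probe sets of the same gene. By the probe sets that represent them, Srxn1 and Txnrd1 exceeded its median of 0.18. That spread lies within these arrays and does not measure variation between arrays or cultures. The Nqo1 ratio is a bound.

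The remaining metabolic enzymes of the list were close as well. The microsomal epoxide hydrolase gene Ephx1 read 5.81 and 6.21 log2 and the carbonyl reductase gene Cbr1 6.61 and 6.90 log2. A second carbonyl reductase gene, Cbr3, and the carboxylesterase gene Ces1g (2.78 and 2.71 log2) lay at the floor in both lines and count as not measured. Fth1, the ferritin heavy chain that stores iron, read 13.97 and 13.96 log2. Its light chain partner Ftl1 and the peroxiredoxin gene Prdx1 have only probe sets annotated to several genes, 3 and 5 in number, which are not assigned here. Their log2 ratios ran from -0.06 to 0.19 for the sets that include Ftl1 and from -0.13 to 0.29 for those that include Prdx1. G6pdx was not analysed here.

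All 6 genes of glutathione synthesis, recycling and use had ratios below 0, with a median of -0.25 and none past 2-fold. Gclc, the catalytic subunit of glutamate-cysteine ligase, which sets the rate of glutathione synthesis, read 8.92 log2 in lung-recovered and 9.87 log2 in parental cells. It was 1.93-fold lower, and its other probe set gave a ratio of -0.87. After quantile normalization or lowess its ratio passed 2-fold, the largest in size being -1.04. The modifier subunit Gclm differed far less, at 9.55 and 9.77 log2. Glutathione synthetase Gss (9.15 and 9.29 log2) and glutathione reductase Gsr (9.37 and 9.66 log2) likewise lay close. The hydrogen peroxide-reducing selenoenzyme gene Gpx1 was 1.66-fold lower, at 11.17 and 11.90 log2 by its single probe set. Gpx2, the glutathione peroxidase of gut epithelium, was dim on both arrays, at 5.17 and 5.30 log2.

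Of the NADPH-supplying enzymes, Me1 stood apart. Me1, the cytosolic malic enzyme, read 11.39 log2 in lung-recovered cells and 12.85 log2 in parental cells, 2.75-fold lower, and its second probe set gave a ratio of -1.29. The pentose phosphate pathway genes did not share that difference in size. Pgd read 10.24 and 10.41 log2, with ratios from -0.19 to -0.11 over 4 probe sets. The transaldolase gene Taldo1 read 11.17 and 11.23 log2, with a ratio of 0.04 when the arrays were set to equal medians, and the transketolase gene Tkt 12.30 and 12.53 log2. The thioredoxin gene Txn1 read 12.44 and 12.68 log2, while a dimmer probe set gave a ratio of -0.93.

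**Figure D3:**
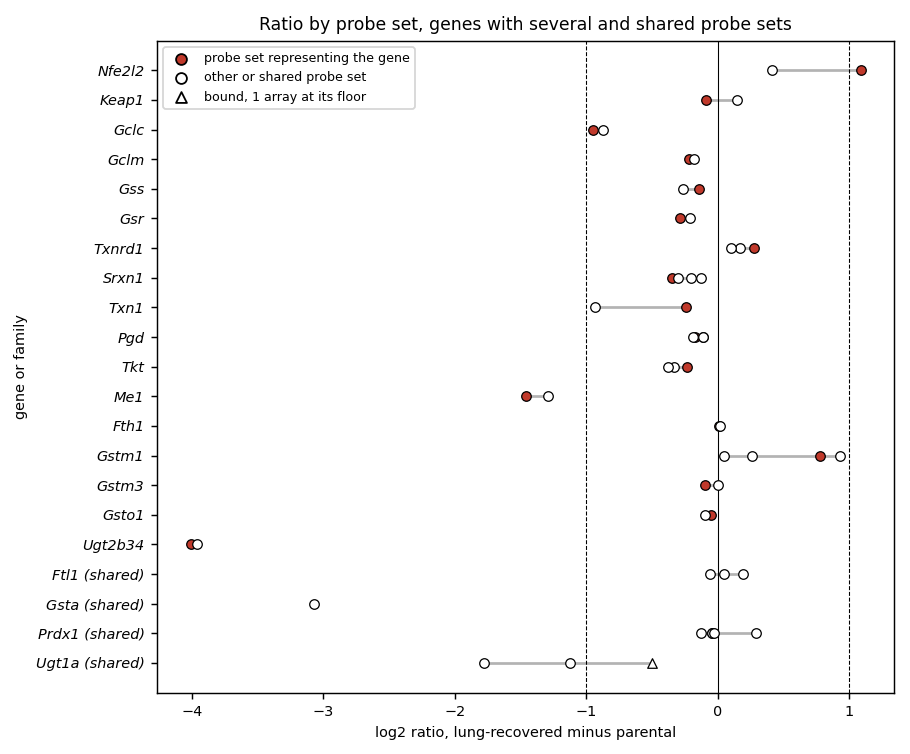
Log2 ratio (lung-recovered minus parental) of each measured probe set, for the 17 genes with several and for the probe sets shared between genes, the filled point being the one that represents the gene. Ratios of the same gene mostly lie close, as for Ugt2b34 (-4.01 and -3.96), and spread widest for Gstm1 (0.05 to 0.93), Txn1 and Nfe2l2.

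Of the 17 members with several measured probe sets, 15 had ratios of the same sign throughout, the exceptions being Keap1 and Gstm3, and 14 had ratios within 0.5 log2 of each other. The exceptions to the second count were Gstm1, Txn1 and Nfe2l2.

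Other Nrf2 targets and glutathione genes came from lists that do not overlap the members. Of 10 measured further Nrf2 targets, 4 passed 2-fold upward (40%) and 1 downward (10%), against 4.42% and 2.55% of all measured genes. The list's median log2 ratio was 0.45. Osgin1, an oxidative stress-induced growth inhibitor, read 11.49 log2 in lung-recovered and 9.37 log2 in parental cells, 4.35-fold higher. The biliverdin reductase gene Blvrb was 2.53-fold higher (8.10 and 6.76 log2) and the exporter gene Abcc4 2.10-fold higher (11.22 and 10.15 log2). Ptgr1, an alkenal reductase, was at least 2.10-fold higher (5.76 and 4.15 log2). It was measured on the lung-recovered array alone, which fixes the sign of its ratio. Slc7a11, which imports cystine for glutathione synthesis, was 2.38-fold lower by the probe set that represents it (8.07 and 9.32 log2) and 1.06-fold lower by its other probe set. The list was thus mixed within itself.

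Of 17 other measured glutathione genes, 2 passed 2-fold upward (11.8%) and 1 downward (5.88%), against 4.42% and 2.55% of all measured genes. The median of these 17 was -0.08. After quantile normalization 1 was higher, and a floor at the 60th percentile gave a median of 0.23. Gpx8, a peroxidase of the endoplasmic reticulum, read 8.15 log2 in lung-recovered cells and was at the floor in parental cells (4.34 log2), at least 11.0-fold higher. Its being measured on the lung-recovered array alone fixes the sign of that ratio. Ggct, which degrades gamma-glutamyl peptides, was 2.07-fold higher, with 1.06-fold and 1.32-fold by dimmer probe sets. Chac2, which breaks glutathione down in the cytosol, was 3.18-fold lower (9.52 and 11.19 log2). Of 14 other genes of peroxide and superoxide defence, Txnip, an inhibitor of thioredoxin, was 2.01-fold higher, or 1.82-fold by a second probe set, and 0 were 2-fold lower. The share higher was 7.14%, against 4.42% of all measured genes. After quantile normalization 0 genes of that list were past 2-fold upward. The median of that list was -0.05.

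Sequence around the start sites was searched for motifs in RefSeq promoters of build GRCm38.p6, a window of 250 bases before to 50 after each annotated start, which 45 of the 50 genes had. The antioxidant response element core TGACNNNGC, on either strand, was in a window of 11 of these 45 genes (24.4%), against 14% of 27025 genes. The AP-1 site TGANTCA, which can overlap that core and reads the same on both strands, was in a window of 9 members (20%), against 8.97% of genes. The HNF1 core, searched in the same way, was in 0 of the members' windows and in 3 of all 32851. So rare a string would be absent from 45 genes in nearly any case, so its absence does not bear on HNF1 sites. A match is a string of letters and shows no binding, and many known elements lie further upstream than this window.

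The 8 measured genes with the antioxidant response element core included higher, lower and close genes, and the sites are shown so that the flanks can be compared, each 5′ to 3′ on the strand of its gene with the match in capitals. Nfe2l2 has its match starting at -240 (chr2:75704885-75704913, minus strand), Gstm5 at -42 (chr3:107895802-107895830, plus strand) and Me1 at -6 (chr9:86695902-86695930, minus strand). Gclm has a match at -134 (chr3:122245413-122245441, plus strand), Txnrd1 at -92 from 1 of its starts (chr10:82859104-82859132, plus strand) and Srxn1 at 29 (chr2:152105542-152105570, plus strand). The reverse complement of the core is printed where it lies on the other strand.
Nfe2l2: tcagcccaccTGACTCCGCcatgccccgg
Gstm5: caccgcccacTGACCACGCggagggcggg
Me1: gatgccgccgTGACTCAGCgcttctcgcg
Gclm: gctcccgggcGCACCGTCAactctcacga
Txnrd1: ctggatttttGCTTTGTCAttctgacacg
Srxn1: gcagtgggcaGCTAGGTCAgagtgagaca

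The match in Me1 is at the same time an AP-1 site, and Srxn1 has AP-1 sites at -102 and -45. The other measured genes with a match were Pgd and Gstm7. Log2 ratios of the 8 genes ran from -1.46 (Me1) to 2.10 (Gstm5), with a median of -0.06, and 2 of them passed 2-fold upward and 1 downward. The 25 measured genes with a window and no match had a median of -0.13, with 2 higher and 3 lower. Both groups thus held higher and lower genes, where 4.42% of all measured genes were higher and 2.55% lower. Whether these letters go with direction was not tested.

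Glutathione S-transferase classes differed from each other. Over all 18 genes of the family, 14 were measured, 3 passed 2-fold upward (21.4%) and 1 downward (7.14%). Among all measured genes the shares were 4.42% and 2.55%. The median log2 ratio of the family was 0.07. Members of a class have close relatives, so a probe set may carry signal of several of them, and the assignment to 1 gene is uncertain.

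In the alpha class, which handles lipid peroxidation products, 1 of 2 measured genes passed 2-fold, Gsta2. It read 6.87 log2 in lung-recovered cells, against 9.41 log2 in parental cells, 5.82-fold lower. A probe set annotated to 3 genes, 2 of them with Gsta symbols, was 8.40-fold lower, at 8.73 and 11.80 log2. Gsta4, which acts on 4-hydroxynonenal, was 1.84-fold lower (9.0 and 9.88 log2). Gsta3 was at the floor on both arrays (3.38 and 3.21 log2).

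The 250 bases before the start of Gsta2 are shown beside those of its relative Gsta1, which has no probe set of its own here. They describe the promoters only. Probe sets read transcripts, which were not compared, so these bases do not bear on how signal is shared. Of these bases, 184 (73.6%) were identical in a global alignment, and capitals mark runs of at least 8 aligned identical bases, all in the part next to the start. The Gsta2 stretch is chr9:78347146-78347395 on the minus strand and the Gsta1 stretch chr9:78230419-78230668 on the plus strand.
Gsta2: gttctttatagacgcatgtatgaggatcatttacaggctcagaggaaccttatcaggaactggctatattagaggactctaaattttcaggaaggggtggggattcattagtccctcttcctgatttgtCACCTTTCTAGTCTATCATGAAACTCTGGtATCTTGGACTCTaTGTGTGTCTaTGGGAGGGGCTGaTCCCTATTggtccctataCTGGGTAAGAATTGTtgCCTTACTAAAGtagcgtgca
Gsta1: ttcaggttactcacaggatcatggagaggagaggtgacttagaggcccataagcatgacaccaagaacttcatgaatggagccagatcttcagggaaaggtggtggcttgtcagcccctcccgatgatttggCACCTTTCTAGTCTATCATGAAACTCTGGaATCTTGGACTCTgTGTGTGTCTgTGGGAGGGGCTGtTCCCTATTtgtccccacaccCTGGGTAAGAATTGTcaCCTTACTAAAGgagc

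Of the 6 measured genes of the mu class, 1 passed 2-fold, Gstm5, which was higher. Gstm5 and Gstm2 were measured on the lung-recovered array alone, which fixes the sign of their ratios. Gstm5 was at the floor in parental cells (3.69 log2) and read 6.79 log2 in lung-recovered cells, at least 4.29-fold higher. With the floor at the 60th percentile that bound shrank to a log2 ratio of 0.61. Gstm4 was 1.87-fold higher (5.79 and 4.89 log2). Gstm1 was 1.72-fold higher (8.11 and 7.33 log2), but its other probe sets ranged from 0.05 to 0.93. Gstm7 (5.71 and 5.65 log2) and Gstm3 (6.52 and 6.62 log2) lay within 0.10 of equality. Gstm2 was near the floor in lung-recovered cells (4.78 log2) and at it in parental cells (4.51 log2), and Gstm6 was at the floor on both arrays (3.44 and 3.32 log2).

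In the chromosome 3 cluster the order of these genes in GRCm38.p6 is Gstm5, Gstm7, Gstm6, Gstm3, Gstm2, Gstm1 and Gstm4. The larger ratios thus lay at the ends of the cluster, with genes of smaller ratio or not measured between them.

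Neighbouring genes differed in the omega class, while both measured theta genes were higher. Of the pi genes, Gstp3 was lower and Gstp1 lay close. Gsto1 read 12.74 and 12.79 log2. Its chromosome 19 neighbour Gsto2 read 7.81 log2 in lung-recovered and 6.23 log2 in parental cells, 2.99-fold higher by its single probe set. Gstt3 was 2.03-fold higher (5.91 and 4.89 log2) and Gstt1 1.44-fold higher (6.38 and 5.85 log2), and both are dim. Gstt2 (4.07 and 3.32 log2) and Gstt4 (4.05 and 4.19 log2) were at the floor on both arrays. Gstp1, the pi-class enzyme common in epithelial tumours, read 12.88 and 13.01 log2, and Gstp3 was 1.62-fold lower (5.36 and 6.06 log2). The ratio of Gsto1 was 0.05 when the arrays were set to equal medians.

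**Figure D4:**
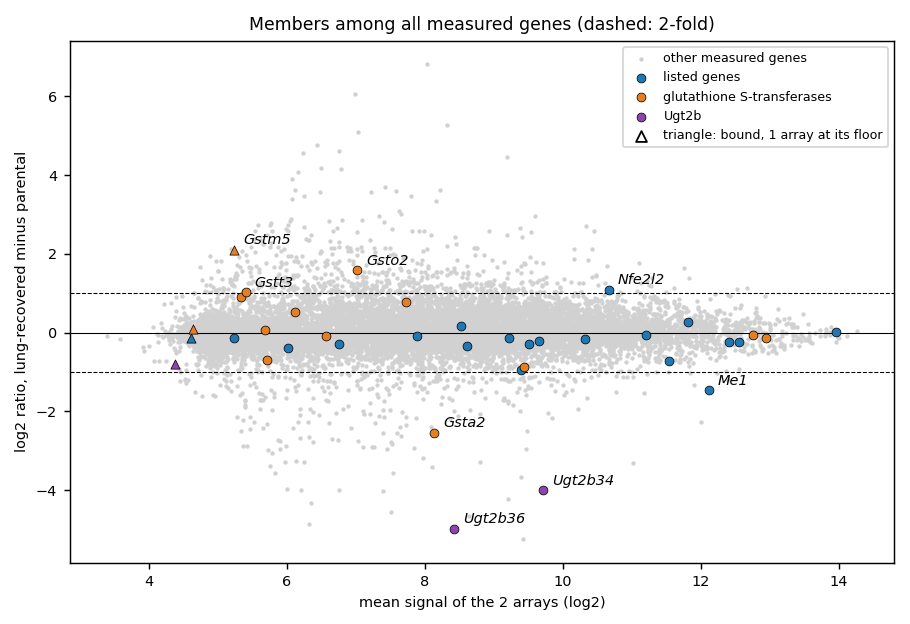
Log2 ratio (lung-recovered minus parental) against the mean log2 signal of the arrays for all 13332 measured genes (grey) and the members (coloured), with dashed lines at 2-fold. Ugt2b36 and Ugt2b34 lie near the lower edge of all genes, and Me1 stands out at high signal, where most genes are close to 0.

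The glucuronosyltransferases held the members furthest apart. Ugt2b36 read 5.93 log2 in lung-recovered cells, against 10.91 log2 in parental cells, 31.6-fold lower. Ugt2b34 read 7.71 and 11.72 log2, 16.1-fold lower, and its second probe set gave a ratio of -3.96. Ugt2b1 was at the floor in lung-recovered cells (3.36 log2) and dim in parental cells (5.39 log2), at least 1.74-fold lower. Without a floor its log2 ratio was -2.03. The sign for Ugt2b1 is fixed by its being measured on the parental array alone, so the 2-fold differences in this family are those of Ugt2b36 and Ugt2b34. The others, Ugt2b5 (2.55 and 2.87 log2), Ugt2b35, Ugt2b37 (2.89 and 3.93 log2) and Ugt2b38 (3.56 and 3.51 log2), were at the floor in both lines.

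The Ugt2b genes form a cluster on chromosome 5 in the order Ugt2b34, Ugt2b1, Ugt2b35, Ugt2b36, Ugt2b5, Ugt2b37 and Ugt2b38. The strongly lower genes Ugt2b34 and Ugt2b36 are thus not next to each other. The 250 bases before the starts of Ugt2b36 and Ugt2b34 are shown because these genes had the largest differences of all members. Unlike the pair of alpha-class genes they had 130 identical bases of 250 (52.0%) in a global alignment and no shared run of 8, so nothing is capitalised. Neither holds the antioxidant response element core or the AP-1 site. The HNF1 core is too rare for its absence here to bear on HNF1 sites. The Ugt2b36 stretch is chr5:87092556-87092805 and the Ugt2b34 stretch chr5:86906938-86907187, both on the minus strand.
Ugt2b36: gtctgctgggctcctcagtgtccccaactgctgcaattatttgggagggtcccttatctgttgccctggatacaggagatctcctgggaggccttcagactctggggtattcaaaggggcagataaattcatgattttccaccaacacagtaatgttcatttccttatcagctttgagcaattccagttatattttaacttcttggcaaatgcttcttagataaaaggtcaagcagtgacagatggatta
Ugt2b34: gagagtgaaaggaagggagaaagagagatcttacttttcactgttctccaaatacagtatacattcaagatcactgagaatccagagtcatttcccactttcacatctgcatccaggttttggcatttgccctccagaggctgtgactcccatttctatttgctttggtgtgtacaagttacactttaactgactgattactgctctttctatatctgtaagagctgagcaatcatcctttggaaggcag

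No Ugt1a gene had a probe set of its own, since the enzymes of that locus share their last exons. The 3 probe sets annotated to 8 Ugt1a genes together were lower in lung-recovered cells. They read 5.62 and 7.40 log2 (3.43-fold lower), 6.16 and 7.28 log2 (2.17-fold lower) and 3.72 and 5.09 log2 (at least 1.41-fold lower). The last was measured on the parental array alone, which fixes the sign of its ratio. These values describe the locus and no single enzyme.

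Transcripts of genes that supply the sugar donor were close in both lines, and that of the opposing hydrolase was not. The donor itself was not measured. Ugdh, which makes UDP-glucuronic acid, read 11.50 and 11.60 log2, and Ugp2, which makes its precursor UDP-glucose, 10.69 and 10.71 log2. Slc35d1, a transporter that carries UDP-glucuronic acid into the endoplasmic reticulum, read 7.30 and 7.27 log2. Gusb, the lysosomal beta-glucuronidase that cleaves glucuronides, was at the floor in parental cells (4.09 log2) and read 7.42 log2 in lung-recovered cells, which makes it at least 6.63-fold higher. By the second Gusb probe set the bound was at least 2.95-fold. Both probe sets were measured on the lung-recovered array alone, which fixes the sign of their ratios. Gusb was the only gene past 2-fold of the 6 measured in that list. That is 16.7% higher, against 4.42% of all measured genes.

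Of 11 measured transcription factors known to act on conjugating enzymes in liver and gut, 0 passed 2-fold, against 6.97% of all measured genes. After quantile normalization 1 of the factors was lower past that mark. The median log2 ratio of the 11 was -0.07, or 0.21 under a floor at the 60th percentile. Ahr, the dioxin receptor, was 1.91-fold higher (10.68 and 9.75 log2) and Foxa2 1.92-fold lower (7.14 and 8.08 log2). Foxa1 read 11.49 and 11.19 log2. Hnf4a was dim on both arrays, at 5.12 and 5.20 log2, as was Cdx2, at 5.08 and 5.24 log2.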

How the data were processed

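Total RNA of 1 culture of each line was hybridised to Affymetrix arrays as biotinylated cRNA, per the labels' protocols. The deposited values are log2 signals for 45037 probe sets, with the base taken from their range. MAS5 is named in the submitters' processing notes with no role, and no source used here gives the scaling. The 2% trimmed linear means were 243 on the lung-recovered and 233 on the parental array, 4.13% apart and inside the 5% limit for using values without rescaling. Precision is limited by the number of arrays, 1 per line.

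Probe sets were named through the platform annotation, with symbols updated by Entrez identifier to the gene table of GRCm38.p6. Of 35877 listed, 34945 had 1 symbol and 932 several, and 9160 were unlisted and are unnamed here. The gene table held 34741 of the single-symbol sets by identifier, and the annotation's own symbol was kept for 204. Floors, ratios and counts were computed with numpy 2.4.6 and pandas 2.3.3 in Python 3.11.15, and lowess with statsmodels 0.14.6. The code was tested on simulated data. With 1 array per group no test was run.

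The members, further lists, markers and motifs were chosen with earlier results of these data known. All listed genes and all measured family genes are named, and from each further list up to 4 genes past 2-fold. The other genes named from those lists, among them Cul3, Sqstm1, Ugdh, Ugp2, Slc35d1, Ahr, Foxa1, Foxa2, Hnf4a and Cdx2, were chosen after their values were seen. A planned comparison of protein sequences was not run, since no protein table was used here. Alternatives were 3 scalings, 3 floors, the median over probe sets, leaving out probe sets whose names end in _s_at, _x_at or _a_at, other fold marks and subsets of members.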

Additional observations from a re-analysis of the deposited data

How the results depend on the processing

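Of the 8 genes past 2-fold, 6 stayed past it under all of the 8 scalings, floors and probe set choices that gave them a value. The exceptions were Nfe2l2 (0.75 by the median over probe sets) and Gstm5 (0.61 with the floor at the 60th percentile), where the count of higher genes was 2 in place of 4 since Gstt3 was also not measured there. Of the 29 genes within 2-fold, 3 passed it under some alternative (Gclc, Gstm4 and Ugt2b1), and 3 changed sign (Keap1, Taldo1 and Gsto1), none with a reported ratio over 0.09 in size. Setting the arrays to equal medians moved the median over all genes by 0.10 and that of the members to -0.04. At 1.5-fold 6 members were higher and 9 lower, and at 3-fold 1 was higher and 3 lower. Shares of all genes at these marks were not computed. Without the Ugt2b and Gsta genes 4 of 32 measured members passed 2-fold upward and 1 downward. Median log2 ratios of single groups were 0.50 for Nrf2 and its sensor, -1.71 for Gsta, 0.43 for Gstm, 0.77 for Gsto, -0.41 for Gstp, 0.78 for Gstt and -4.01 for Ugt2b, each over at most 6 genes. Counting the shared Gsta and Ugt1a probe sets, chosen after seeing the data, gave 4 higher and 6 lower. Where a value moved, the cause was not tested beyond the change itself. No paired analysis was possible because each line has 1 array. Floors limit what dim genes such as Gstt3 and Gstm4 can show.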
